A study of Mus musculus with 12 samples.

Results

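The measurements concern 8 genes, most of them of the actin cytoskeleton, that are known targets of the transcription factor SRF, of the coactivators YAP and TAZ, or of both: Ankrd1, Tpm1, Srf, Vcl, Acta2, Tagln, Cnn1 and Myl9. They are 8 of the 18193 genes that a probe set of the platform names singly. All probe sets annotated to exactly 1 of the 8 genes were taken, which gave 16 of the 45101 probe sets in the deposited table. A probe set was tested where 2 or more of the 12 arrays read it higher than their own median, which 10 of the 16 did, from 6 of the 8 genes, and the remaining 6 are given as values only. All of the 10 but 1 lay above the median on 12 arrays, and the exception, Tpm1 1456623_at, on 11.

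RNA of cultured mouse embryonic fibroblasts (MEFs) was hybridised to 12 Affymetrix expression arrays. The 6 groups, with 2 arrays each, were AMN107-IFNg, AMN107-IFNa, AMN107, IFNg, IFNa and DMSO. AMN107, also known as nilotinib, is an inhibitor of the ABL tyrosine kinases. IFNa is a type I and IFNg the type II interferon, and DMSO, the solvent, marks the control. Interferon was left on the cells for 6 h and was given after AMN107 in the combined groups. The labels give no dose or duration of AMN107, no dose of interferon, and no genotype, strain, embryo age or passage of the cells. Arrays that share a group are named biological replicates there, with nothing on what was repeated, so the p-values measure the spread between these arrays. In a bulk sample, a change in RNA per cell and a change in the mix of cells cannot be told apart.

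SRF binds DNA at the CArG box. Its cofactors of the MRTF family are held in the cytoplasm by monomeric actin and enter the nucleus when RhoA signalling drives actin into filaments, so that many genes of the contractile apparatus respond to the state of actin itself. YAP and TAZ, which the Hippo kinases restrain, respond to spreading and tension of the cell and bind DNA through TEAD proteins. In fibroblasts both systems are known for the genes that rise when a cell spreads, contracts or turns into a myofibroblast. Ankrd1, a nuclear ankyrin repeat protein first studied in heart muscle, is a widely used readout of YAP and TAZ. SRF also controls its own gene.

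The 250 bases upstream of the RefSeq gene start (table of build GRCm38.p6) are shown for Ankrd1, Tpm1, Srf and Vcl, the 4 genes described first below, since these bases hold motifs for both systems. Capitals mark a CArG box, searched strictly as CCWWWWWWGG with W for A or T, or the TEAD motif GGAATG. Both strands were searched, CArG boxes with a mismatch were not, and the lines run 5′ to 3′ on the gene's strand. The windows are chr19:36119845-36120094 (minus strand) for Ankrd1, chr9:67049214-67049463 (minus strand) for Tpm1, chr17:46556163-46556412 (minus strand) for Srf and chr14:20929148-20929397 (plus strand) for Vcl.
Ankrd1: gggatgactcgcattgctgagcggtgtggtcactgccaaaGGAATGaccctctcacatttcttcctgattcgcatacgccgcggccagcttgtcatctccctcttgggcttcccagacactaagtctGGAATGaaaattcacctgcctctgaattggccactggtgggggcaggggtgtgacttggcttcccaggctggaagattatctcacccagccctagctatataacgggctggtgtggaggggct
Tpm1: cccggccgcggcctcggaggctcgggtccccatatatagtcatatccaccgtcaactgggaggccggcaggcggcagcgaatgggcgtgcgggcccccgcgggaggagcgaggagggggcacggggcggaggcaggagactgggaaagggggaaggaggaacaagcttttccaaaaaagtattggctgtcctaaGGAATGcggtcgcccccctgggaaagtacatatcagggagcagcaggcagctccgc
Srf: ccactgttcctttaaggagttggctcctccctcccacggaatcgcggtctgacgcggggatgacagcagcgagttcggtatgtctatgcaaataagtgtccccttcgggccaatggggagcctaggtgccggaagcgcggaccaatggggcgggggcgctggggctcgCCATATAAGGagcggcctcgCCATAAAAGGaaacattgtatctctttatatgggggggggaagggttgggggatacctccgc
Vcl: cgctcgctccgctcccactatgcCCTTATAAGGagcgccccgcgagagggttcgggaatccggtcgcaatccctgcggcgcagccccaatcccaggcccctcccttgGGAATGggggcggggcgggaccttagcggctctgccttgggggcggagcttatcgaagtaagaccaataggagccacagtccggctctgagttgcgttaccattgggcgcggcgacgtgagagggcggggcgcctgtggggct

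Ankrd1 held 2 TEAD motifs in this window, at 210 to 205 and at 123 to 118 bases before the start, and Tpm1 held 1 at 56 to 51 bases. Srf held 2 CArG boxes, at 82 to 73 and at 62 to 53 bases. Vcl held 1 CArG box at 227 to 218 bases and 1 TEAD motif at 143 to 138 bases. No CArG box overlapped a TEAD motif. Of the other genes in the table, Myl9 held 1 CArG box, Acta2 1 TEAD motif and Cnn1 no match to these letters. Among 32851 promoter windows of the same length in the table, 1.47% held a CArG box, 12.6% the TEAD motif and 0.186% both. These matches describe the letters of the window and were not set against the signals.

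The cells carried fibroblast markers in part. Of 10 fibroblast markers, 6 lay above the array's median on all 12 arrays, among them Vim, Col1a2, Fn1 and Loxl1, while Thy1, Lum and Fap did so on none. Of 6 smooth muscle markers, Des, Smtn and Lmod1 lay above it on all 12 arrays and Myh11, Synpo2 and Actg2 on none. Of 8 skeletal and cardiac muscle markers, Tnnt2, Acta1 and Ckm did so on all 12 and Myog, Myh3 and Myl1 on none. Of the smooth muscle markers, only Smtn was higher in AMN107 than in DMSO (101 and 109 against 70.9 and 63.4). Des, Lmod1, Myh11, Synpo2 and Actg2 were lower on both AMN107 arrays than on both DMSO arrays. Smtn, Lmod1 and Actg2 are also in the list of MRTF and SRF targets used below. The summed signal of the smooth muscle list was 204.5 to 211 on the AMN107-IFNg arrays, 216 to 222 on the AMN107-IFNa arrays, 223 to 227 on the AMN107 arrays, 195 to 202 on the IFNg arrays, 186 to 198 on the IFNa arrays and 205 to 209 on the DMSO arrays. That of the skeletal and cardiac list was 295 to 307 in AMN107-IFNg, 330.2 to 337 in AMN107-IFNa, 336 to 363 in AMN107, 375 to 421 in IFNg, 383 to 504 in IFNa and 509 to 509.8 in DMSO, so it was lower on every AMN107 array than on every array without AMN107. Tnnt2 made up most of that sum, at 162 and 170 in AMN107-IFNg, 228 and 198 in AMN107, and 361 and 360 in DMSO. Acta1 read 36.4 and 44.2 in AMN107 and 37.8 and 39.6 in DMSO, and Ckm 24.1 and 24.1 against 29.2 and 25.7. The epithelial list was also lower with AMN107, at 114 to 137 on the 6 AMN107 arrays and 140.3 to 181 on the other 6. The neuronal list was at 757 to 872 in AMN107-IFNg, 239 to 257 in AMN107-IFNa and AMN107, 469 to 494 in IFNg, 199 to 229 in IFNa and 171 to 186 in DMSO. Tubb3 made up most of the higher sums, at 692 and 572 in AMN107-IFNg, 356 and 339 in IFNg, and 25.1 and 32.5 in DMSO. Map2 was also higher in AMN107-IFNg than in DMSO (113 and 114 against 44.8 and 59.8). Syp (30.2 and 26.6 against 50.1 and 45.3) and Rbfox3 (33.5 and 41.0 against 48.6 and 45.9) were lower, and Snap25 read 2.40 to 3.07 on all arrays. The fibroblast list itself was at 5098 to 5457 on the AMN107 arrays, 5543 to 5794 in IFNg, 4293 to 6229 in IFNa and 4031 to 4119 in DMSO. The part of these lists in the results was not tested.

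Array quality bears on what follows. For GAPDH, the ratio of 5′ to 3′ signal was 0.0252 on IFNa replicate 2 and 1.07 to 1.16 on the other 11 arrays. Over all tested probe sets, the difference between replicates had an SD of 0.435 (log2) in IFNa and of 0.131 to 0.157 elsewhere. The arrays were fitted with limma as 1 model with a shared spread, on log2(signal + 8.66), and the distance between the IFNa arrays enters that spread. Values without IFNa replicate 2 are given where they change a call. Dropping IFNa replicate 1 in its place also removes that distance, and calls on the other groups passed then too wherever this is said for replicate 2. The actin 5′/3′ ratio was 0.798 to 0.830 on the 6 AMN107 arrays, 0.791 and 0.795 on the IFNg arrays, 0.696 and 0.212 on the IFNa arrays, and 0.676 and 0.712 on the DMSO arrays. The 3′ probe set of LysX, a bacterial RNA used as a spike, gave 36.1 to 41.4 on the AMN107 and IFNg arrays, 81.1 and 45.4 on the IFNa arrays, and 59.6 and 66.2 on the DMSO arrays. Both controls thus separated the DMSO and IFNa arrays from the other 8, and their part in the results was not tested.

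Ankrd1 was high on every array with AMN107, intermediate with IFNg alone and low with DMSO. On probe set 1420991_at the signal was 1053 and 937 in AMN107-IFNg, 1164 and 1088 in AMN107-IFNa, 1068 and 1049 in AMN107, 650.2 and 798 in IFNg, 402 and 396 in IFNa, and 300.2 and 348 in DMSO. The 6 AMN107 arrays overlapped none of the 6 arrays without it. Among the group means, the order from high to low was AMN107-IFNa, AMN107, AMN107-IFNg, IFNg, IFNa and DMSO. The arrays of AMN107 and AMN107-IFNg overlapped. IFNa lay above DMSO on both arrays, but the difference of 0.30 (SE 0.11) did not pass the test (adjusted p = 0.0936).

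Without interferon, AMN107 raised Ankrd1 1420991_at by 1.68 on the log2 scale (SE 0.11, 95% interval 1.43 to 1.94, adjusted p = 1.28e-05), a 3.21-fold rise in signal + 8.66. With IFNa the difference was 1.48 (SE 0.11, adjusted p = 5.68e-05). With IFNg it was 0.46 (SE 0.11, adjusted p = 0.0238), a call lost without IFNg replicate 1, AMN107-IFNg replicate 1 or AMN107-IFNg replicate 2 (adjusted p = 0.0582 to 0.196). IFNg without AMN107 raised it by 1.13 (SE 0.11, adjusted p = 0.000225), while in the presence of AMN107 the IFNg difference was -0.09 (95% interval -0.35 to 0.17, adjusted p = 0.994). The interaction of AMN107 and IFNg, which tests this difference between responses, was -1.22 (SE 0.16, 95% interval -1.59 to -0.86, adjusted p = 0.00902). The call for the interaction was lost without DMSO replicate 1, AMN107 replicate 1, AMN107 replicate 2 or AMN107-IFNg replicate 2 (adjusted p = 0.0558 to 0.0717), and without IFNa replicate 2 the adjusted p was 3.24e-05.

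The second Ankrd1 probe set, 1420992_at, gave the same order for AMN107 against its controls with smaller differences. Its signal was 839 and 841 in AMN107-IFNg, 857 and 889 in AMN107-IFNa, 839 and 837 in AMN107, 597 and 653 in IFNg, 545 and 749 in IFNa, and 443 and 441 in DMSO. All 6 AMN107 arrays were again above all others. AMN107 raised it by 0.91 without interferon (SE 0.13, adjusted p = 0.000735), by 0.45 with IFNa (adjusted p = 0.029) and by 0.42 with IFNg (adjusted p = 0.049). It also rose with IFNg alone by 0.49 (adjusted p = 0.0391) and with IFNa alone by 0.52 (adjusted p = 0.0376). Of the IFNa arrays, replicate 2, the array with low 5′/3′ ratios, read higher, and without it the difference from DMSO was 0.30 (adjusted p = 0.033). Its interaction with IFNg was -0.49 (adjusted p = 0.27), and without IFNa replicate 2 it passed (adjusted p = 0.00134). The calls for AMN107 with IFNg, for IFNg alone and for IFNa alone were each lost on leaving out any 1 of the 10 arrays outside the IFNa group. The call for AMN107 with IFNa was lost without any 1 of the 6 AMN107 arrays (adjusted p = 0.0503 to 0.132).

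**Figure D1:**
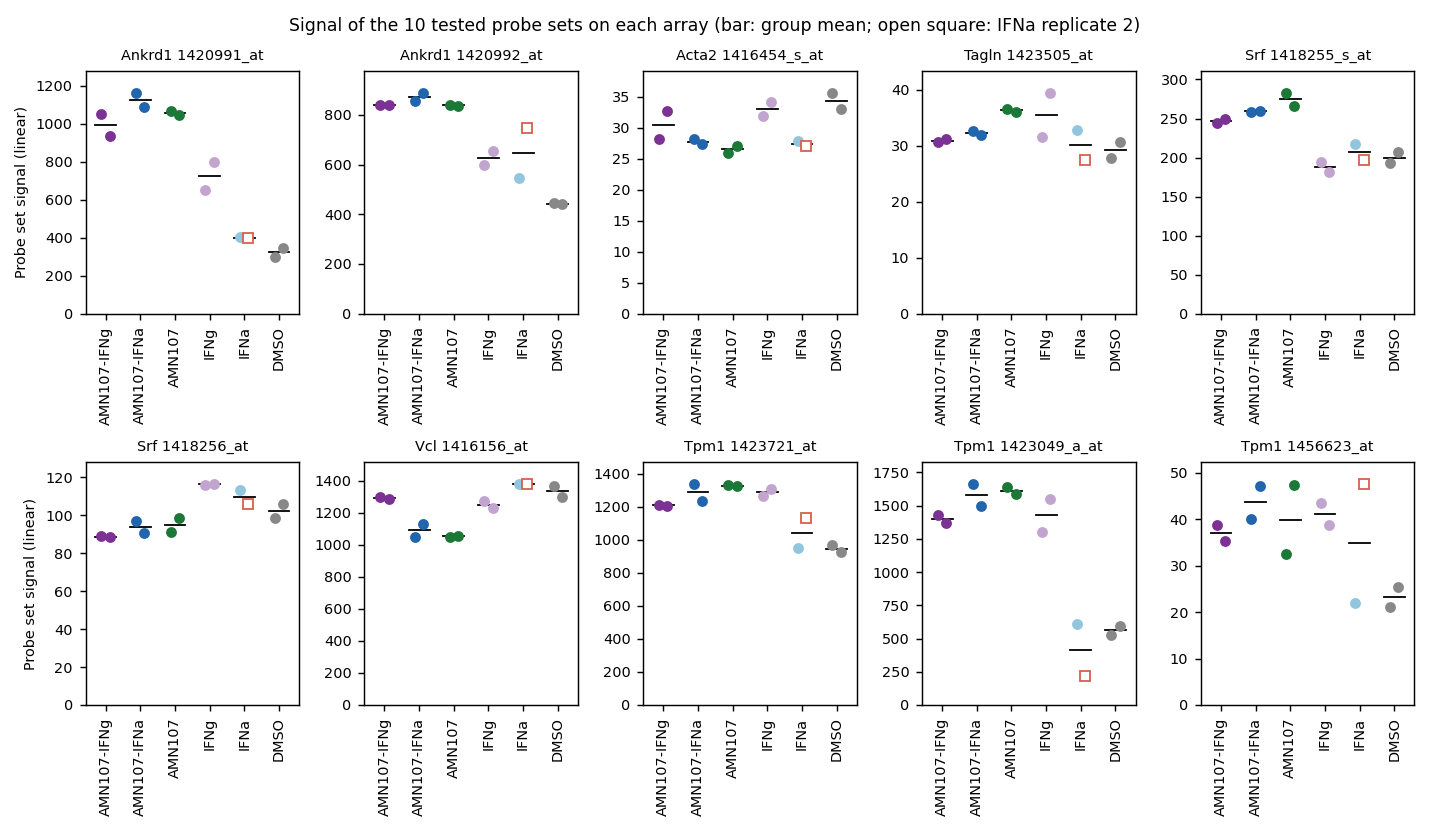
Signal of each of the 10 tested probe sets on every array (linear scale from 0), by group, with a bar at the group mean of 2 arrays and an open square for IFNa replicate 2. Ankrd1 1420991_at lies at 937 or above on the 6 AMN107 arrays and at 798 or below on the others, and Tpm1 1423049_a_at lies at 608 or below in IFNa and DMSO and at 1300.1 or above elsewhere.

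Tpm1 encodes a tropomyosin, a coiled-coil protein that lies along the actin filament and is made in several isoforms by alternative splicing and promoters. On 1423721_at and 1423049_a_at the DMSO and IFNa arrays were lower than those of the other 4 groups. On 1423721_at the signal was 1212 and 1207 in AMN107-IFNg, 1339 and 1239 in AMN107-IFNa, 1331 and 1328 in AMN107, 1269 and 1306 in IFNg, 949 and 1132 in IFNa, and 969 and 925 in DMSO. The 2 arrays of AMN107 lay above both DMSO arrays, as did those of IFNg. AMN107 without interferon raised it by 0.49 (SE 0.09, 95% interval 0.29 to 0.68, adjusted p = 0.00315), and IFNg alone raised it by 0.44 (SE 0.09, adjusted p = 0.0141). With IFNa the effect of AMN107 was 0.31 (adjusted p = 0.0299). With IFNg it was -0.09 (95% interval -0.29 to 0.11, adjusted p = 0.545), so no further rise was detected where IFNg was present.

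The probe set 1423049_a_at, whose suffix marks probes shared by several transcripts of 1 gene, had larger differences. Its signal was 1430.2 and 1369.6 in AMN107-IFNg, 1662 and 1499 in AMN107-IFNa, 1638 and 1586 in AMN107, 1300.1 and 1553 in IFNg, 608 and 214 in IFNa, and 529 and 595 in DMSO. The IFNa and DMSO arrays lay far below the other 8, with a gap from 608 to 1300.1 between them. AMN107 raised it by 1.51 without interferon (SE 0.34, adjusted p = 0.00889), a 2.85-fold rise, and by 2.10 with IFNa (SE 0.34, adjusted p = 0.00224). Without IFNa replicate 2, the SE of the first fell to 0.08 (adjusted p = 5.99e-09) and the second was 1.36 (adjusted p = 4.82e-07). IFNg alone raised it by 1.33 (adjusted p = 0.039). The effect of AMN107 with IFNg was -0.02 (95% interval -0.78 to 0.74, adjusted p = 0.977). The third probe set, 1456623_at, was dim, with 38.7 and 35.3 in AMN107-IFNg, 40.0 and 47.1 in AMN107-IFNa, 32.6 and 47.3 in AMN107, 43.6 and 38.7 in IFNg, 22 and 47.6 in IFNa, and 21.2 and 25.3 in DMSO. Its differences of 0.59 for AMN107 (adjusted p = 0.0821) and 0.64 for IFNg (adjusted p = 0.128) did not pass over 12 arrays but did without IFNa replicate 2 (adjusted p = 0.00189 and 0.00207). Its difference for AMN107 with IFNa was 0.33 (adjusted p = 0.358), and without that array 0.77 (adjusted p = 0.00221). The fourth, 1447713_at, read 3.62 to 5.33 on all arrays and was not tested.

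For Tpm1 the interaction of AMN107 and IFNg was -0.58 on 1423721_at (adjusted p = 0.0621), -1.53 on 1423049_a_at (adjusted p = 0.192) and -0.71 on 1456623_at (adjusted p = 0.412), none of which passed over 12 arrays. Without IFNa replicate 2, all 3 passed (adjusted p = 0.000184, 1.78e-06 and 0.0198). On 1423049_a_at, 2 of the 3 calls depended on single arrays. The call for AMN107 without interferon was lost without DMSO replicate 1, AMN107 replicate 1 or AMN107 replicate 2. That for IFNg alone was lost without any 1 of the 10 arrays outside the IFNa group. On 1423721_at, the call for IFNg alone was lost without any 1 of the 4 IFNg and DMSO arrays (adjusted p = 0.0782 to 0.0975), and that for AMN107 with IFNa without any 1 of the 6 AMN107 arrays (adjusted p = 0.0526 to 0.193). As with Ankrd1, the groups with low Tpm1 were those with the lower actin 5′/3′ ratio and the higher LysX signal.

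**Figure D2:**
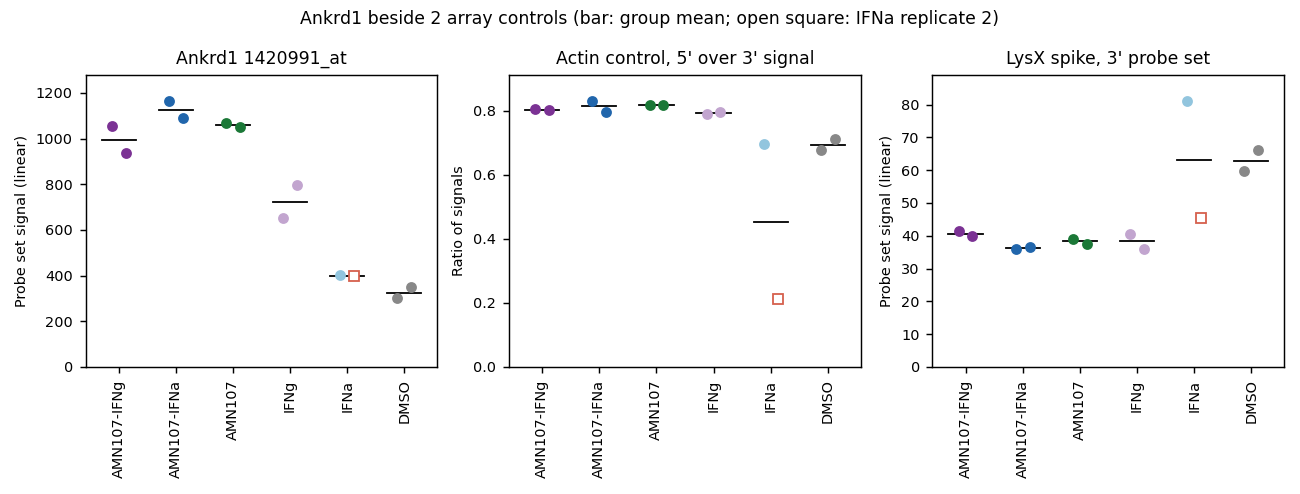
Ankrd1 1420991_at (left, signal), the actin 5′/3′ ratio (middle) and the 3′ probe set of the LysX spike (right, signal) on every array by group, with a bar at the group mean and an open square for IFNa replicate 2. The actin ratio is 0.791 or above and LysX 41.4 or below on all AMN107 and IFNg arrays, while the DMSO arrays have ratios of 0.676 and 0.712 and LysX at 59.6 and 66.2.

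Srf, the transcription factor itself, gave opposite readings from its 2 probe sets. On 1418255_s_at the signal was 244 and 249 in AMN107-IFNg, 258 and 260.0 in AMN107-IFNa, 283 and 267 in AMN107, 194 and 182 in IFNg, 217 and 197 in IFNa, and 193 and 207 in DMSO. All AMN107 arrays lay above all arrays without it. AMN107 raised this probe set by 0.44 without interferon (SE 0.09, 95% interval 0.24 to 0.65, adjusted p = 0.00574), by 0.31 with IFNa (adjusted p = 0.0323) and by 0.38 with IFNg (adjusted p = 0.0217). On 1418256_at the signal was 89.1 and 88.2 in AMN107-IFNg, 96.7 and 90.5 in AMN107-IFNa, 91.1 and 98.5 in AMN107, 116 and 116 in IFNg, 113 and 106 in IFNa, and 98.6 and 106 in DMSO. All AMN107 arrays were at or below the lowest array without it. The AMN107 differences were -0.10 without interferon (adjusted p = 0.398), -0.21 with IFNa (adjusted p = 0.107) and -0.36 with IFNg (SE 0.09, adjusted p = 0.021), and the last of these passed as a fall.

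The direction for Srf as a gene is therefore uncertain, and the suffix of 1418255_s_at marks probes that can match transcripts of several genes. Under quantile normalization the rise of 1418255_s_at did not pass without interferon (0.25, adjusted p = 0.0808) or with IFNg (0.27, adjusted p = 0.0957), and 1418256_at fell without interferon (-0.31, adjusted p = 0.028). Without interferon the call for 1418255_s_at was lost without DMSO replicate 1 or AMN107 replicate 1 (adjusted p = 0.0522 to 0.0551). With IFNa it was lost without any 1 of the 6 AMN107 arrays (adjusted p = 0.0553 to 0.138). With IFNg both probe sets lost the call without any 1 of the 4 arrays compared (adjusted p = 0.0649 to 0.131).

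Vcl, which encodes vinculin, the protein that links integrin adhesions to actin filaments, was lower with AMN107 unless IFNg was present. The signal of 1416156_at was 1302 and 1285 in AMN107-IFNg, 1051 and 1133 in AMN107-IFNa, 1052 and 1056 in AMN107, 1273 and 1229.9 in IFNg, 1381 and 1378 in IFNa, and 1367 and 1301 in DMSO. The AMN107 and AMN107-IFNa arrays lay below all others. With AMN107 it fell by 0.34 without interferon (SE 0.07, 95% interval of the difference -0.49 to -0.18, adjusted p = 0.00531), a ratio of 0.792. With IFNa it fell by 0.33 (SE 0.07, adjusted p = 0.00688), a ratio of 0.793. With IFNg the difference was 0.05 (95% interval -0.10 to 0.20, adjusted p = 0.686). In the presence of AMN107, the IFNg difference was 0.29 (adjusted p = 0.0782), and the interaction of AMN107 and IFNg was 0.38 (SE 0.10, adjusted p = 0.108). Both passed without IFNa replicate 2 (adjusted p = 0.00425 and 0.00403). The fall without interferon was lost without DMSO replicate 1 (adjusted p = 0.0532) and the fall with IFNa without AMN107-IFNa replicate 1 (adjusted p = 0.0711). The second probe set, 1416157_at, read 7.77 to 13.3 and was not tested.

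**Figure D3:**
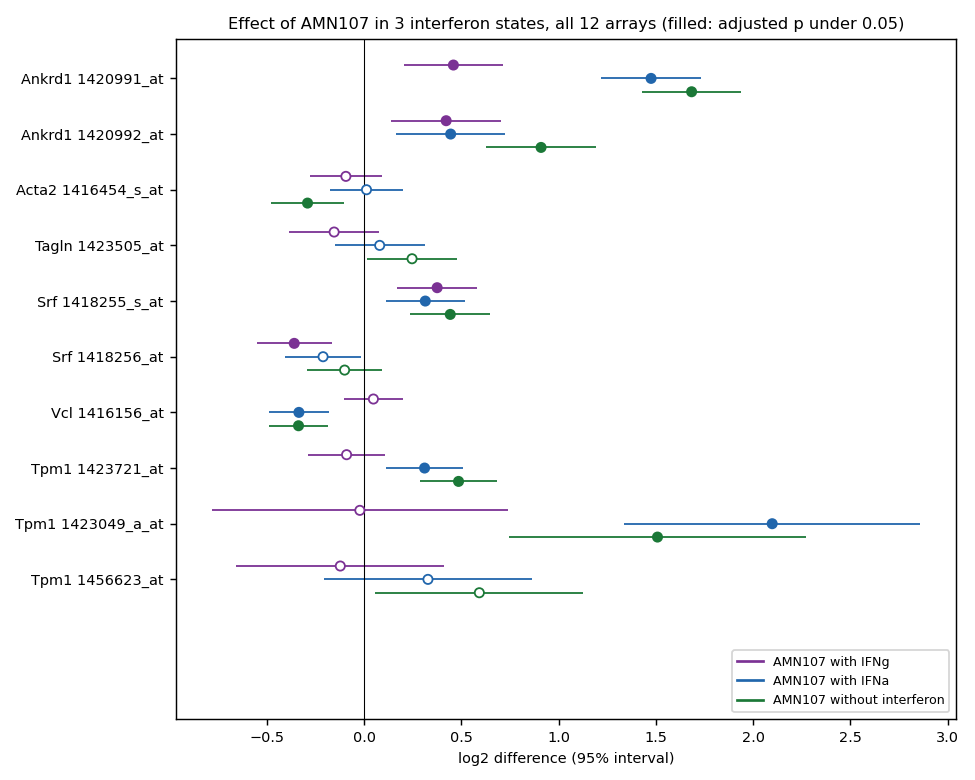
Difference between AMN107 and its control (log2 scale, x axis) for each of the 10 tested probe sets with IFNg, with IFNa and without interferon; points are limma estimates over 12 arrays, lines their 95% intervals, and filled points have an adjusted p under 0.05. Ankrd1 1420991_at stands at 0.46, 1.48 and 1.68, and Vcl at 0.05, -0.33 and -0.34.

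Of the 4 smooth muscle contractile genes, Acta2 and Tagln had 1 probe set each somewhat above the median of every array, and Cnn1 and Myl9 lay below it. Acta2, which encodes smooth muscle alpha-actin and is the usual marker of myofibroblasts, was measured by 1416454_s_at at 28.2 and 32.7 in AMN107-IFNg, 28.2 and 27.3 in AMN107-IFNa, 25.8 and 27.1 in AMN107, 31.9 and 34.1 in IFNg, 27.9 and 27.0 in IFNa, and 35.6 and 33.0 in DMSO, or the 54.4th to 61.2nd percentile of each array. The AMN107 arrays lay below both DMSO arrays, and the difference of -0.29 passed the test (SE 0.08, adjusted p = 0.0246). It did not pass without any 1 of the 4 arrays compared (adjusted p = 0.0534 to 0.141), and its suffix marks probes that can match transcripts of other genes. The other Acta2 probe sets read 4.87 to 7.57 on 1456658_at and 2.91 to 4.71 on 1444105_at, below every array's median.

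Tagln encodes transgelin, an actin-binding protein of smooth muscle. Its probe set 1423505_at read 30.6 and 31.2 in AMN107-IFNg, 32.6 and 31.9 in AMN107-IFNa, 36.7 and 36.0 in AMN107, 31.6 and 39.5 in IFNg, 32.8 and 27.4 in IFNa, and 27.8 and 30.8 in DMSO. The AMN107 arrays were above both DMSO arrays, with a difference of 0.25 (SE 0.10, 95% interval 0.02 to 0.48, adjusted p = 0.0917) that did not pass over 12 arrays but did without IFNa replicate 2 (adjusted p = 0.044). Cnn1, the actin-binding calponin of smooth muscle, read 9.66 to 15.2, and Myl9, a regulatory light chain of myosin, 6.95 to 12.7. Both lay below the median of all 12 arrays and had no order among the groups that the signals could resolve.

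Across the 10 tested probe sets, AMN107 without interferon raised 5 and lowered 2, where 20.7% of all 24363 tested probe sets rose and 12.4% fell. The risers were the pairs of Ankrd1 and Tpm1 probe sets already given and 1 of Srf, and the fallers were Vcl and Acta2. The median difference was 0.46 over the 10 and 0.03 over all tested probe sets. AMN107 with IFNa raised 5 and lowered 1 (11.2% and 12.9% of all), with medians of 0.31 and -0.00. AMN107 with IFNg raised 3 and lowered 1 (10.9% and 4.41% of all), with medians of -0.06 and 0.01. The counts of members called depended on single arrays. Without interferon the count was 3 without DMSO replicate 1, 4 without AMN107 replicate 1 and 9 without either IFNa array. With IFNa it was 2 or 3 without any 1 of the 6 AMN107 arrays, and with IFNg it was 0 or 1 without any 1 of the 4 arrays compared. The split of all calls depended on the scaling between arrays. Without interferon it was 5047 higher and 3009 lower, but 3860 and 4523 after quantile normalization and 5859 and 2082 after median centring. With IFNg it was 2667 and 1074, against 2109 and 1484 after quantile normalization. For the 10 member probe sets without interferon, the split was 4 higher and 3 lower after quantile normalization and 6 and 2 after median centring.

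IFNg without AMN107 raised 4 and lowered 0, where 6.65% of all tested probe sets rose and 2.33% fell (1621 and 568, or 1639 and 1425 after quantile normalization). These were the Ankrd1 pair and Tpm1 1423721_at and 1423049_a_at, and the medians were 0.33 over the 10 and -0.02 over all. IFNa without AMN107 raised 1 of 10, Ankrd1 1420992_at, and lowered 0, where 8.91% of all rose and 3.08% fell (2171 and 751, against 990 and 835 after quantile normalization and 4913 and 475 after median centring). In the presence of AMN107, limma called 0 of 10 for IFNa, against 0.119% of all. For IFNg it called 0 of 10, against 1.78% of all. The interaction was called for 1 of 10 with IFNg (1.38% of all) and for 0 of 10 with IFNa (0.152% of all). The count for IFNg without AMN107 was 1 or 2 without any 1 of the 10 arrays outside the IFNa group. That for IFNa without AMN107 was 0 without any of these arrays and 5 where IFNa replicate 1 was dropped and the array with low 5′/3′ ratios stood alone.

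Without IFNa replicate 2 the shares called rose for all probe sets too. For AMN107 without interferon 9 of 10 were called (52.2% of all in either direction), and with IFNa 7 of 10 (32.2% of all). For IFNg the counts were 5 of 10 without AMN107 (28.8% of all) and 1 of 10 with it (4.85% of all). The interaction of AMN107 and IFNg was called for 6 of 10 (13.1% of all): Vcl was positive, and the Ankrd1 pair and the 3 Tpm1 probe sets were negative. The probe sets of 1 gene share its RNA and are not separate observations, and the AMN107 and IFNg differences share the same DMSO arrays.

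**Figure D4:**
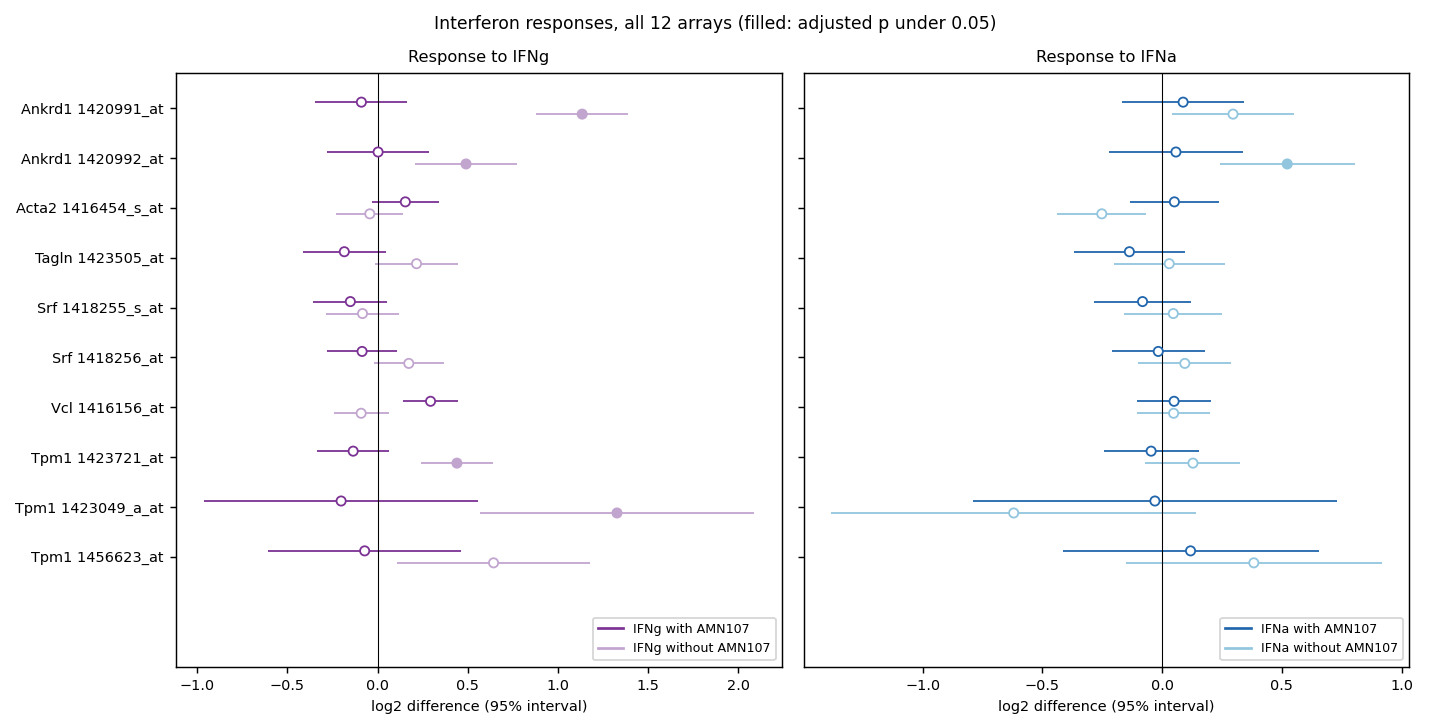
Response to IFNg (left) and to IFNa (right) with and without AMN107 (log2 difference, x axis) for each of the 10 tested probe sets over 12 arrays; lines are 95% intervals and filled points have an adjusted p under 0.05. For Ankrd1 1420991_at the response to IFNg is -0.09 with AMN107 and 1.13 without, and none of the points with AMN107 is filled.

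Other genes of the pathways were counted from 3 lists, by 1 probe set per gene. Of 30 further actin-cytoskeleton targets of MRTF and SRF, 26 were tested, and AMN107 without interferon raised 8 and lowered 2, where 19.9% of 12189 genes rose and 13.0% fell; the medians were 0.08 and 0.02. Csrp1, a LIM protein of actin bundles, had a signal of 474 and 531 in AMN107 and 99.5 and 127 in DMSO, a rise of 2.08 (SE 0.13, adjusted p = 1.02e-05). Its pattern over the groups was like that of Ankrd1 in the tests: it rose with IFNg alone by 1.40 (adjusted p = 0.000166), and the interaction of AMN107 and IFNg was -1.20 (adjusted p = 0.0168). Csrp2, its relative, rose by 0.60 (adjusted p = 0.00969). Pdlim7, a further LIM protein, rose by 0.63 (adjusted p = 0.0126), while its other probe sets read -0.50 and -0.15. Filip1l fell by 0.79 (adjusted p = 0.00349). Mylk, the kinase of the myosin light chain, fell by 0.62 (adjusted p = 0.00386) and its other probe set read 0.06.

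Of 20 YAP and TAZ targets, 18 were tested, and AMN107 without interferon raised 8 and lowered 3, against the same 19.9% and 13.0% of all genes, with a median of 0.32. Gadd45a, a stress gene that also responds to p53, had 327 and 297 in AMN107 and 104 and 87.8 in DMSO, a rise of 1.62 (SE 0.14, adjusted p = 4.45e-05). Crim1 rose by 1.40 (adjusted p = 0.0159; 0.27 on its other probe set) and Fstl1, a secreted glycoprotein, by 1.21 (adjusted p = 6.04e-05). Lats2, a Hippo kinase that YAP induces, fell by 0.71 (adjusted p = 0.00243), with -0.22 to 0.22 on its other probe sets. Arhgef17, an exchange factor for RhoA, and Rbms3, an RNA-binding protein, each fell by 0.36 (adjusted p = 0.0221 and 0.0257). The most used targets of the pathway were split: Ccn2 (also Ctgf) rose by 0.54 (adjusted p = 0.00611), while Ccn1 (also Cyr61) differed by 0.00 (adjusted p = 0.983); both were picked for mention after their values were seen.

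Of 29 listed regulators of the pathways, 25 were tested, and AMN107 without interferon raised 2 and lowered 4, with a median of -0.04. Of all genes, 19.9% rose and 13.0% fell, so the regulators' counts are near or below the background. Mrtfa, a cofactor of SRF, rose by 0.55 (adjusted p = 0.00886), and Rhoa, the GTPase that promotes actin polymerisation, by 0.44 (adjusted p = 0.00175). Stk4, a Hippo kinase, fell by 0.46 (adjusted p = 0.00603), Tead3, a DNA-binding partner of YAP, by 0.41 (adjusted p = 0.0156), and Rock1, a kinase downstream of RhoA, by 0.30 (adjusted p = 0.0379). The other probe sets of Stk4 read 0.12 and 0.27, and those of Rock1 0.18, -0.11 and 1.40. Yap1 and Wwtr1, which encodes TAZ, differed by -0.02 and 0.02 (adjusted p = 0.877 and 0.949), and were picked for mention after their values were seen. Without IFNa replicate 2 the counts were 11 up and 4 down for the MRTF and SRF list, 11 and 4 for the YAP and TAZ list and 5 and 9 for the regulators, where 31.2% of all genes rose and 21.8% fell.

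AMN107 with IFNa raised 3 and lowered 4 of the MRTF and SRF list, raised 2 and lowered 5 of the YAP and TAZ list, and raised 2 and lowered 6 of the regulators, where 10.6% of all genes rose and 13.7% fell. The medians were 0.05, 0.08 and -0.16, and -0.01 over all genes. AMN107 with IFNg raised 5 and lowered 3, raised 5 and lowered 1, and raised 1 and lowered 2 of these lists in that order, where 1467 of the 12189 genes rose and 584 (4.79%) fell. The differences between these counts were not tested.

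**Figure D5:**
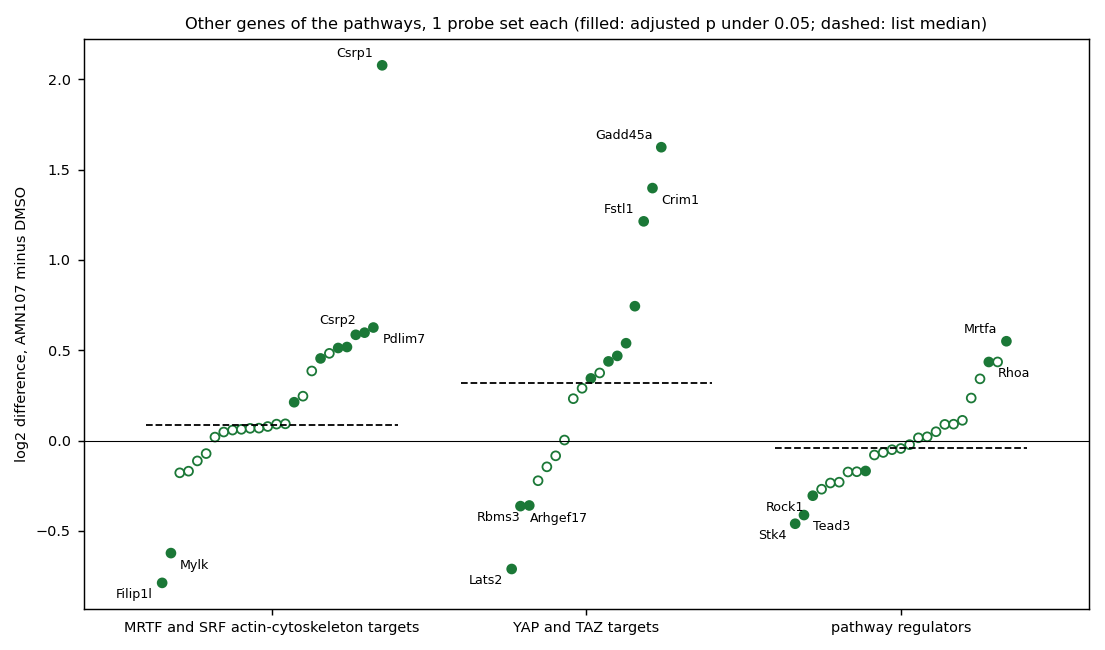
Difference between AMN107 and DMSO (log2 scale, y axis) for each tested gene of the 3 pathway lists, in rising order within a list; filled points have an adjusted p under 0.05 over 12 arrays, and the dashed line is the list's median. The medians are 0.08, 0.32 and -0.04, and Csrp1 stands highest at 2.08.

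Among the 8 genes, Ankrd1 had a main probe set whose 6 group means spanned at least 1 (log2), with a range of 1.77. The 3 genes of 12188 whose group means followed it most closely were Camk1, a calcium/calmodulin-dependent kinase, with a root mean square distance of 0.09, Ier2, an immediate early gene, with 0.13, and Ccndbp1, a cyclin D1 binding protein, with 0.13 (log2, each profile centred on its own mean). Among the main probe sets of the other members, the closest was that of Tpm1 (1423721_at) at 0.53 and the farthest that of Vcl at 0.81. Further probe sets of these genes were not compared. These distances describe 6 means of 2 arrays each and carry no test.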

How the data were processed

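RNA of mouse embryonic fibroblasts was measured on 12 Affymetrix arrays, 2 in each of 6 groups. Per the submitters' processing notes the deposited intensity values were made by the authors with MAS5, on a linear scale, and no version, scaling rule or genome build is given in the sources used here. Of 45101 probe sets, 64 are controls, 34945 are annotated to 1 gene, 932 to several and 9160 to none. Symbols were looked up in a RefSeq table (GRCm38.p6), which also holds the promoter sequences, and 34741 matched.

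The scale was log2(signal + 8.66), with an offset equal to the 25th percentile averaged over the arrays, and no further normalization. The 24363 probe sets that 2 or more arrays read higher than their own median were fitted with limma 3.58.1 in R 4.3.3 (1 mean per group, eBayes with a trend). The 9 contrasts were tested two-sided, with Benjamini-Hochberg adjustment over all of these probe sets and a threshold of 0.05. SE is limma's standard error. Folds are ratios of signal + 8.66 and understate the change of dim genes. The fit was tested on simulated data with equal spread in all groups, which does not cover the wider spread of the IFNa arrays. Arrays had median signals of 20.6 to 22.7, and their number limits the precision.

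All probe sets of the members are described. A gene's main probe set is that with the highest mean log2 value. From each pathway list, up to 3 largest rises and falls with AMN107 without interferon are named. The members, lists, motifs and tests were chosen with earlier results of these data known. No label ties a replicate number to a shared culture or day. The deviations of same-numbered arrays, in 15 comparisons of 2 groups, correlated at -0.14 to 0.32, above 0.1 in 3, so numbers were not treated as pairs. Alternatives were quantile normalization, median centring, an offset of 1, no filter, a filter at the 75th percentile, the replicate number as a block, array weights, a fit of only the groups compared, 1 probe set per gene, and leaving out each array in turn.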

Additional observations from a re-analysis of the deposited data

Results flagged for a closer look

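The response of Ankrd1 (1420991_at) to IFNg differed between cells with and without AMN107. The interaction was -1.22 on the log2 scale (adjusted p = 0.00902 by limma): the IFNg difference was -0.09 with AMN107 and 1.13 without it. Both arrays of IFNg lay above both DMSO arrays, while the AMN107-IFNg arrays did not lie apart from the AMN107 arrays. The call for 1420991_at was lost without DMSO replicate 1, AMN107 replicate 1, AMN107 replicate 2 or AMN107-IFNg replicate 2.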

How the results depend on the processing

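Over 1827 values of 90 single probe set results under 21 alternatives, 1666 kept their side of the threshold, 109 fell below it, 52 passed it and 0 calls changed direction. Some differences that were not called changed sign, such as Srf 1418256_at for IFNa alone (0.09, and -0.11 after quantile normalization). The counts of members called over 12 arrays were 7 (AMN107 without interferon), 6 (with IFNa), 4 (with IFNg), 1 (IFNa alone), 4 (IFNg alone), 0 and 0 (IFNa and IFNg with AMN107), 0 and 1 (interactions with IFNa and IFNg). With the replicate block they were 7, 6, 4, 1, 4, 0, 0, 0 and 1, so no count moved. Quantile normalization gave 2 for AMN107 with IFNg and 0 for IFNa alone, and median centring gave 2 for IFNa alone. The filter at the 75th percentile, which tested 7 member probe sets, gave 1 for IFNg with AMN107 and 2 for the interaction with IFNg. Array weights gave 2 for AMN107 with IFNa, 0 for IFNa alone, 1 for IFNg with AMN107 and 7 for the interaction with IFNg. The fit of only the groups compared gave 1, 0, 2 and 6 for the same results. The other counts under these alternatives, an offset of 1 and no filter stayed within 1.5 times of the counts over 12 arrays. Leaving out 1 array at a time gave ranges of 3 to 9, 2 to 7, 0 to 4, 0 to 5, 1 to 5, 0 to 0, 0 to 1, 0 to 4 and 0 to 6, in the order above. Without IFNa replicate 2 they were 9, 7, 4, 1, 5, 0, 1, 0 and 6. The cause of each move was not tested. Each group has 2 arrays, and a left-out array leaves a lone one that is assumed to vary like the other groups. For Acta2, Tagln and Tpm1 1456623_at, signals near the array's median limit what could be resolved.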
